A study of Homo sapiens with 60 samples.

Results

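The 8 liver identity transcription factor genes described here are HNF4A, HNF4G, FOXA1, FOXA2, FOXA3, CEBPA, ONECUT1 and PROX1. They were matched by symbol in a table of 60675 genes, all 8 were found, and all 8 were among the 16093 genes with enough counts to be tested. Their RNA was counted in 60 sequenced libraries, 3 in each of 20 groups, of HepG2 cells (an established line from a human liver tumour) treated for 24 h. Besides vehicle there was a group with 10 µM wortmannin, which inhibits phosphoinositide 3-kinase. The other 18 groups received water extracts of Poria Cocos, Atractylodis Rhizoma (Atractylodes from here on), Glycyrrhizae Radix (licorice), Angelicae Gigantis Radix (angelica), Paeoniae Radix (peony) or Panax Ginseng at 20, 100 or 500 µg/mL. All groups share the single cell line, which comes from a tumour and is no primary hepatocyte. The labels give the vehicle as 0.1% DMSO and the series text as 2%, and the labels of the other groups name no DMSO.

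Hepatocyte identity is held by a small network of transcription factors that bind each other's genes as well as those for albumin, apolipoproteins, clotting factors and metabolic enzymes. HNF4A is a nuclear receptor at the centre of that network, and HNF4G is its close paralog. The FOXA proteins are pioneer factors that can bind their sites in closed chromatin. CEBPA is a leucine zipper factor that drives metabolic genes and restrains division, ONECUT1 (also called HNF6) acts early in liver and bile duct development, and PROX1 is a homeobox factor needed for hepatocytes to leave the embryonic liver bud.

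Total counts ran from 20.9 M to 33.4 M per library with a median of 26.1 M. The titles of all libraries, vehicle and wortmannin included, name the same batch, BatchA. Within that batch the sample descriptions number the groups in sets. Poria and Atractylodes share a set, as do licorice and ginseng, and angelica and peony. Vehicle (numbered A1) and wortmannin (numbered 1) stand outside these sets and under different numbers. A difference between an extract or wortmannin and vehicle and a difference between sets therefore cannot be told apart, whereas a change over the doses of an extract lies within 1 set and uses no vehicle library. No label tells whether replicate libraries were separate cultures, so p-values measure the spread between these libraries, which may be technical. In bulk RNA, fewer cells that express a gene and less RNA per cell cannot be told apart. The 8 hepatocyte markers summed to 43400 to 57900 CPM (the count scaled to a fixed library total) across the groups. Endothelial markers summed to at most 3.26 CPM, fibroblast markers to 0.544 CPM, markers of lung and breast lines to 0.513 CPM and the 5 blood markers other than LYZ to 4.72 CPM, with PTPRC, which all leukocytes carry, at 0 in every library. The share of mitochondrially encoded counts ran from 9.0% to 12.7% by group, and the first library of Poria at 100 µg/mL stood apart with 20.9 M counts and 15.2%.

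Per kilobase of exon, HNF4A and CEBPA were the most abundant of the 8 genes in vehicle, at 45.5 ± 1.13 and 44.4 ± 2.60 CPM per kb (mean ± SD, n = 3). FOXA1 followed at 29.9 ± 0.909 CPM per kb. FOXA2 and FOXA3 stood at 15.6 ± 1.06 and 15.5 ± 0.724 CPM per kb, and PROX1 at 12.02 ± 0.778 CPM per kb. ONECUT1 and HNF4G were lowest, at 4.35 ± 0.647 and 3.54 ± 0.13 CPM per kb. By this measure HNF4A and CEBPA did not differ beyond the spread between libraries, nor did FOXA2 and FOXA3. ONECUT1 lay above HNF4G by little more than 1 SD of ONECUT1. The lengths are the merged exons of all transcripts of a gene, and the SD does not cover that choice. In CPM without lengths, HNF4A stood at 332.9 and CEBPA at 116.9 in vehicle. The counts are per gene and do not separate the transcripts of the upstream and downstream promoters of HNF4A.

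On GRCh38, HNF4A lies on chromosome 20 at 44355700 to 44434596 on the plus strand, and FOXA2 on the same chromosome at 22581005 to 22585455 on the minus strand. HNF4G is on chromosome 8 at 75407914 to 75566843 and FOXA1 on chromosome 14 at 37589984 to 37596059. Chromosome 19 holds both CEBPA, at 33299934 to 33302564, and FOXA3, at 45863989 to 45873797. ONECUT1 is on chromosome 15 at 52756989 to 52791078 and PROX1 on chromosome 1 at 213983181 to 214041502. All of these are protein-coding genes, and each span is that of all GENCODE v29 transcripts of the gene.

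**Figure D1:**
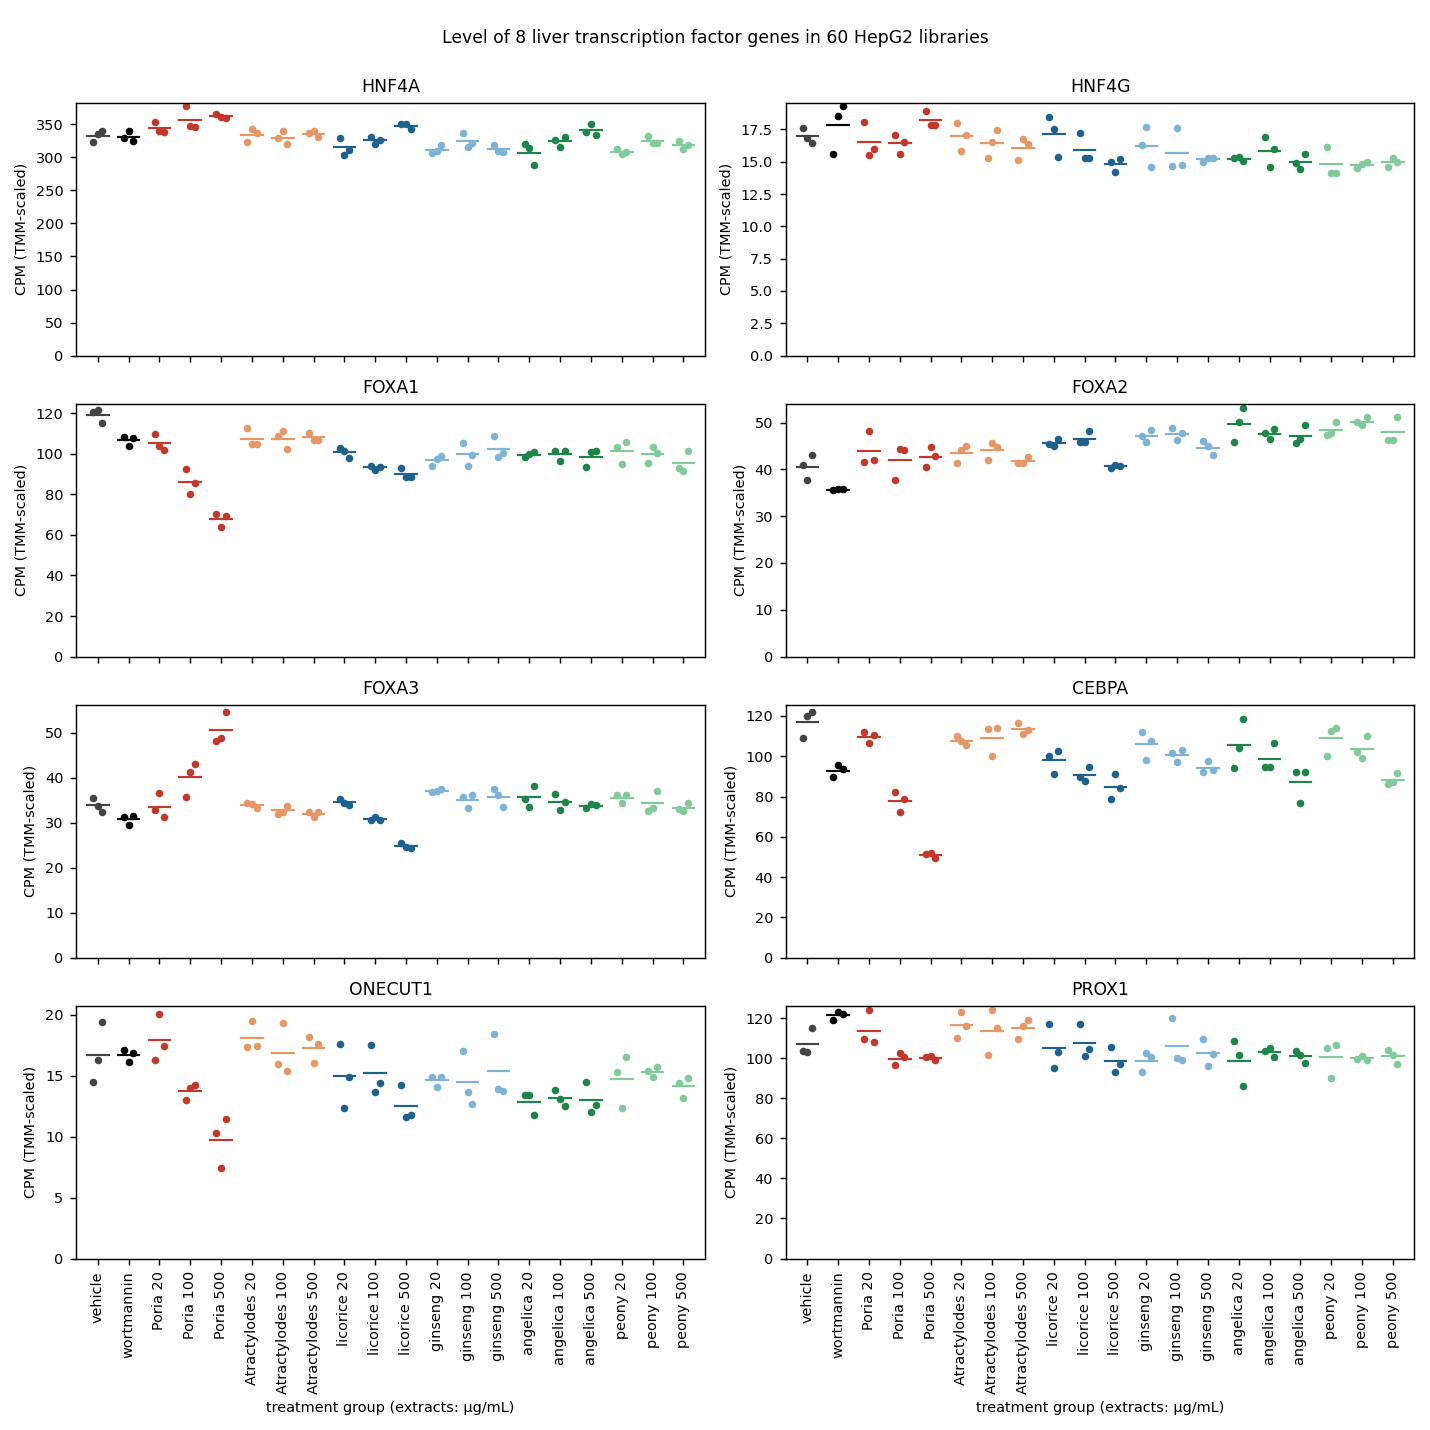
Level of each of the 8 genes (y axis, TMM-scaled CPM from 0) in the 20 treatment groups (x axis, extracts with their dose in µg/mL), with points for libraries and bars for group means. CEBPA and FOXA1 step down and FOXA3 steps up over the 3 Poria groups, while HNF4A stays between group means of 307.3 and 362.4 CPM.

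The widest range over the 20 groups was that of CEBPA, with group means from 50.9 CPM under Poria at 500 µg/mL to 117 CPM in vehicle. FOXA1 ran from 68.0 to 119 CPM and FOXA3 from 24.8 to 50.5 CPM. ONECUT1 ran from 9.71 to 18.1 CPM with the least precise libraries of the 8, since its median coefficient of variation within groups was 10.6%. The HNF4A means spanned 307.3 to 362.4 CPM with a median coefficient of variation of 2.31%. HNF4G ran from 14.8 to 18.2 CPM, FOXA2 from 35.7 to 50.2 CPM and PROX1 from 98.5 to 121 CPM. Relative to its own level, HNF4A varied least of the 8 over the groups and CEBPA most.

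The Poria dose comparison asks which of these genes change between 20 and 500 µg/mL of 1 extract. Across the dose range CEBPA, FOXA1 and ONECUT1 fell and FOXA3 rose, while HNF4A, its paralog and FOXA2 did not pass the test. CEBPA measured 112, 106 and 111 CPM in the 3 libraries at 20 µg/mL, 82.03, 72.4 and 78.8 CPM at 100 µg/mL, and 51.2, 51.9 and 49.7 CPM at 500 µg/mL. The 3 doses did not overlap, and the highest dose was 2.15-fold below the lowest, with a log2 change of -1.10 ± 0.070 (SE, adjusted p = 1.19e-18). FOXA1 measured 110, 104 and 102 CPM, then 92.8, 80.2 and 85.9 CPM, then 70.4, 64.2 and 69.3 CPM. Its doses did not overlap either, and it fell by 0.63 ± 0.050 on the log2 scale (1.55-fold, adjusted p = 2.99e-15).

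ONECUT1 measured 16.3, 20.1 and 17.4 CPM at 20 µg/mL of Poria, 13.0, 14.0 and 14.2 CPM at 100 µg/mL, and 10.3, 7.39 and 11.4 CPM at 500 µg/mL. Every library at a higher dose was below every library at the dose before it. The log2 change from 20 to 500 µg/mL was -0.89 ± 0.133 (1.86-fold lower, adjusted p = 2.02e-07). FOXA3 went the other way, from 32.7, 36.6 and 31.3 CPM through 35.8, 41.4 and 43.1 CPM to 48.2, 48.7 and 54.6 CPM. The FOXA3 libraries at 20 and 100 µg/mL overlapped, those at 500 µg/mL were above all others, and the log2 change was 0.58 ± 0.055 (1.5-fold higher, adjusted p = 9.82e-13).

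PROX1 was the other gene that passed over the Poria doses, with a log2 change of -0.18 ± 0.076 (adjusted p = 0.0443). Its libraries at 20 µg/mL measured 109, 124 and 108 CPM and those at 500 µg/mL 100.4, 101 and 99.2 CPM. Without the second library at 20 µg/mL the PROX1 change was -0.12 with an adjusted p of 0.278, and the call was also lost without any 1 of the libraries at 500 µg/mL (adjusted p of 0.0793 to 0.102). HNF4A measured 354, 340 and 339 CPM at 20 µg/mL and 366, 361 and 360 CPM at 500 µg/mL, a log2 change of 0.07 ± 0.035 that missed the threshold (adjusted p = 0.0844) although the high-dose libraries were all above the low-dose ones. HNF4G changed by 0.14 (adjusted p = 0.128) and FOXA2 by -0.05 (adjusted p = 0.533). With 4 of the 8 genes lower and 1 higher, the members stood against a background in which 43.5% of all tested genes were called, 22.3% higher and 21.2% lower. The median change of the 8 was -0.12 against -0.01 over all genes. Mitochondrial shares of 11.9%, 12.7% and 12.6% at the 3 Poria doses lay above the 11% of vehicle, and their part in these results was not tested. The sum of the 6 blood markers, nearly all of it LYZ, was 1280 to 1420 CPM over the vehicle libraries, 1630 to 1830 CPM at 20 µg/mL of Poria, 2160 to 2990 CPM at 100 µg/mL and 2170 to 2700 CPM at 500 µg/mL. Without LYZ it was 3.61 to 4.44 CPM at 20 µg/mL and 2.49 to 3.22 CPM at 500 µg/mL, with PTPRC, CD3E and HBB at 0 in the latter. The part of LYZ was not tested.

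Each step of the Poria series carried part of the change. From 20 to 100 µg/mL, where 18.8% of genes were called, CEBPA fell by 0.50 (adjusted p = 1.46e-07), FOXA1 by 0.29 (adjusted p = 1.24e-05) and ONECUT1 by 0.39 (adjusted p = 0.0252), and FOXA3 rose by 0.26 (adjusted p = 0.000576). From 100 to 500 µg/mL, where 19.3% were called, the changes were -0.61 for CEBPA (adjusted p = 4.38e-09), -0.34 for FOXA1 (adjusted p = 8.55e-07), -0.51 for ONECUT1 (adjusted p = 0.00718) and 0.33 for FOXA3 (adjusted p = 1.05e-05). Without the Poria library that stood apart, the first step was -0.54 for CEBPA, -0.34 for FOXA1 and 0.33 for FOXA3, all past the threshold. The other 4 genes did not pass at either step, with changes of -0.19 to 0.05 at the first and 0.004 to 0.15 at the second. Without the same library ONECUT1 was at -0.35 with an adjusted p of 0.0795, and its first step also missed the threshold without each other 100 µg/mL library or without the second one at 20 µg/mL, with adjusted p up to 0.173. FOXA3 had an adjusted p of 0.0736 for the first step when only the libraries of the 2 groups were fitted. The second step of ONECUT1 was -0.35 with an adjusted p of 0.109 without the second library at 500 µg/mL.

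The sequences before the start sites of these genes were read from the RefSeq promoter table of GRCh38.p14, in which 5 of the 8 genes have an entry. HNF4G, FOXA2 and PROX1 were not matched. The starts are those of RefSeq: the gene spans given above are from GENCODE v29 and take in transcripts that begin farther upstream, so that the windows of FOXA1, FOXA3 and ONECUT1 and the second of HNF4A lie inside them. Of the CEBPA window, 30 bases, those next to the start, are exon of a coding transcript in GENCODE, and of the FOXA3 window 182 are, which is why the latter is not shown. The windows of CEBPA, FOXA1 and ONECUT1, the genes that fell together under Poria, are shown first, and then the pair of windows of HNF4A, which did not pass over the Poria doses. Each is the 250 bases before the start, written 5′ to 3′ on the strand of the gene, with capitals marking matches to the motifs named after them. The windows are chr19:33302535-33302784 (minus strand) for CEBPA, chr14:37595250-37595499 (minus) for FOXA1, chr15:52790337-52790586 (minus) for ONECUT1, and chr20:44355449-44355698 and chr20:44400989-44401238 (both plus) for HNF4A.
CEBPA: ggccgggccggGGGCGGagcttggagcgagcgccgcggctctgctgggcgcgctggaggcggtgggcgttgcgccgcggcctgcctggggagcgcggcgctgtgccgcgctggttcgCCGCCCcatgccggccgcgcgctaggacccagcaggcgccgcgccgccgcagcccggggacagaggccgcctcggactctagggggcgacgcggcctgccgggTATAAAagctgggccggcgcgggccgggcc
FOXA1: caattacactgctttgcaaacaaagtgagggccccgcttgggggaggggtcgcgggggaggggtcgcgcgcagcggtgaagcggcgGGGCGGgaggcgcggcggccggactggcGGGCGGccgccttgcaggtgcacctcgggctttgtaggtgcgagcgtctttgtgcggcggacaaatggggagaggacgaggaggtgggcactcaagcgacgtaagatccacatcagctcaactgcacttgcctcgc
ONECUT1: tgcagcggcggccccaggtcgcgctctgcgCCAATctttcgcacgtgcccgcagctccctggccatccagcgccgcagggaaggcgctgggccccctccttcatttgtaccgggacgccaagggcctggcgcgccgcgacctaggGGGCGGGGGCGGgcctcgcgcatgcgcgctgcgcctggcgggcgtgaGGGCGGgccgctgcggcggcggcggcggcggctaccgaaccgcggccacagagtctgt
HNF4A window 1: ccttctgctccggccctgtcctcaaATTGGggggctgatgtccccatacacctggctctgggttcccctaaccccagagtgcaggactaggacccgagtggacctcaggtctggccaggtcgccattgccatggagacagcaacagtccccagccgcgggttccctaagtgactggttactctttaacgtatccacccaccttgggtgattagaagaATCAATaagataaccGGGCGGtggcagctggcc
HNF4A window 2: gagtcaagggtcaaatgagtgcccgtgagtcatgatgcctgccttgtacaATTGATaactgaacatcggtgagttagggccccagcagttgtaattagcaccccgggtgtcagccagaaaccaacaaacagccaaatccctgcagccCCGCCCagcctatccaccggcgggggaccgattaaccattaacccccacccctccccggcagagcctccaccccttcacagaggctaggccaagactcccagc

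Both strands of the 6 matched windows, FOXA3 included, were searched for 7 motifs, and the matches found did not overlap each other. The motifs were chosen after these sequences were seen, and all promoters were counted whatever their GC content. The shares of all promoters given beside the counts therefore describe them and are no test. The GC box GGGCGG was in 6 of 6 windows, with a pair of adjoining copies in that of ONECUT1, against 42.6% of the 35116 promoters in the table. TATAAA, the core of the TATA box, was in those of CEBPA and FOXA3, 30 to 25 bases before the start in both (10.7% of all promoters). CCAAT was in those of ONECUT1 and HNF4A window 1 (32% of all promoters). The ONECUT motif ATCAAT was in both HNF4A windows, 33 to 28 and 200 to 195 bases before the start, against 5.58% of all promoters. No window held the forkhead motif TNTTTAC (9.58% of all promoters), the C/EBP motif TTGCNNAA (9.05%) or the HNF4 motif CAAAGTCCA (0.325%), which says only that these letters are not in these windows. The GC content was 81.2% for CEBPA, 76.8% for ONECUT1, 75.2% for FOXA3 and 67.2% for FOXA1, and 58.4% and 58% for HNF4A, where the median promoter had 58%.

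Within the FOXA family the balance between paralogs turned over under Poria. The ratio of FOXA3 to FOXA1, each per kilobase of exon, was 0.517 ± 0.017 in vehicle (SD, n = 3). It was 0.579 ± 0.054 at 20 µg/mL, 0.85 ± 0.13 at 100 µg/mL and 1.35 ± 0.098 at 500 µg/mL of Poria. In the 3 libraries at 500 µg/mL it was 1.24, 1.38 and 1.43. No other group had a mean ratio above 1, and outside Poria the highest was 0.695, in ginseng at 20 µg/mL. With the length of the longest coding transcript in place of all exons, a choice made after seeing the data, the ratio at 500 µg/mL was 1.07 on average and 0.984 in its lowest library. On CPM without lengths FOXA1 stayed ahead, with a ratio of 0.744. The summed CPM of the 3 FOXA genes was 194 ± 3.4 in vehicle and 183 ± 6.9, 168 ± 4.0 and 161 ± 4.9 over the Poria doses.

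**Figure D2:**
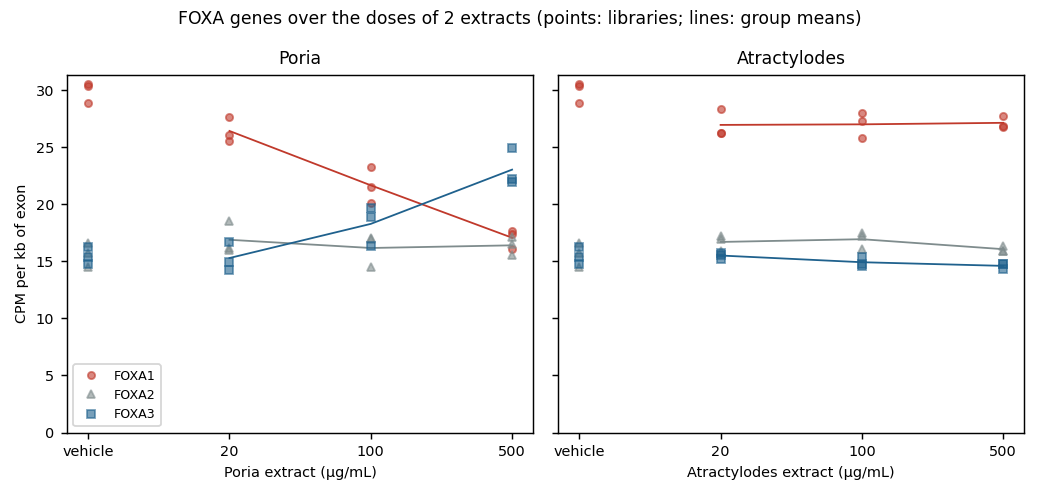
FOXA1, FOXA2 and FOXA3 in CPM per kb of exon (y axis) in vehicle and at 20, 100 and 500 µg/mL of Poria (left) and Atractylodes (right), with points for libraries and lines for group means over the doses. The FOXA3 and FOXA1 lines cross under Poria, where the ratio reaches 1.35 at 500 µg/mL, and stay apart under Atractylodes, where it is 0.538.

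Atractylodes shares its set with Poria and served as the nearest comparison. Between 20 and 500 µg/mL of it 0 of 8 genes passed edgeR's test, 0 had an unadjusted p under the threshold, and DESeq2 called 0 of the 6 genes for which it gave an adjusted p, while 0.0497% of all genes were called. The 8 changes ran from -0.09 to 0.08. CEBPA, for example, measured 110, 108 and 106 CPM at 20 µg/mL and 116, 111 and 113 CPM at 500 µg/mL. The difference between the 2 dose changes, Poria minus Atractylodes, passed for 4 genes where 29.5% of all genes did. It was -1.18 ± 0.096 for CEBPA (adjusted p = 3.27e-14), -0.64 ± 0.069 for FOXA1 (adjusted p = 1.66e-10), -0.83 ± 0.180 for ONECUT1 (adjusted p = 0.000286) and 0.67 ± 0.079 for FOXA3 (adjusted p = 1.54e-09). For HNF4A the difference was 0.07 (adjusted p = 0.342), for HNF4G 0.22 (adjusted p = 0.116), for FOXA2 0.01 (adjusted p = 0.948) and for PROX1 -0.16 (adjusted p = 0.267).

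Over the licorice doses 6 of the 8 genes passed: FOXA3 and, by smaller amounts, CEBPA, FOXA1, FOXA2 and HNF4G fell, and HNF4A rose. FOXA3 measured 35.3, 34.4 and 34.0 CPM at 20 µg/mL, 30.7, 31.2 and 30.6 CPM at 100 µg/mL, and 25.4, 24.6 and 24.4 CPM at 500 µg/mL. The doses did not overlap, and FOXA3 fell by 0.48 ± 0.058 on the log2 scale (1.4-fold, adjusted p = 5.04e-09). HNF4A measured 329, 304 and 312 CPM at 20 µg/mL and 350, 351 and 344 CPM at 500 µg/mL, with all libraries at the high dose above all at the low one. Its log2 change was 0.14 ± 0.035 (adjusted p = 0.00186), and 0.14 with an adjusted p of 0.0524 when no filter on low counts was used.

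The other genes called under licorice fell by 0.16 to 0.21 on the log2 scale. CEBPA measured 100.4, 91.2 and 102 CPM at 20 µg/mL and 78.7, 91.3 and 84.1 CPM at 500 µg/mL, groups that overlap, with a change of -0.21 ± 0.067 (adjusted p = 0.0173). FOXA1 went from 103, 101 and 98.2 CPM to 93.1, 88.4 and 88.6 CPM without overlap, a change of -0.16 ± 0.049 (adjusted p = 0.0115). FOXA2 went from 45.5, 44.9 and 46.4 CPM to 40.3, 41.0 and 40.8 CPM, also without overlap, a change of -0.16 ± 0.054 (adjusted p = 0.0224). All 3 FOXA genes were thus lower at the high licorice dose, and their summed CPM was 181 ± 2.5 at 20 µg/mL and 156 ± 2.9 at 500 µg/mL. HNF4G fell by 0.21 ± 0.076 (adjusted p = 0.038), ONECUT1 changed by -0.26 (adjusted p = 0.162) and PROX1 by -0.09 (adjusted p = 0.435).

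The licorice count of 5 lower and 1 higher compares with 21.3% of all tested genes called, 11% higher and 10.3% lower, and a median of -0.19 over the members with 0 over all genes. The calls of CEBPA, FOXA1, FOXA2 and HNF4G are near the threshold: without the first library at 20 µg/mL the 4 had adjusted p of 0.0676, 0.0536, 0.0517 and 0.233, and only FOXA3 and HNF4A passed. The same 2 passed without the third library at 500 µg/mL, and 3 genes without the first one at 500 µg/mL. HNF4G also missed the threshold with no filter on low counts, with only the groups compared and when regressed on log dose (adjusted p between 0.0527 and 0.0629). From 20 to 100 µg/mL, where 1.52% of genes were called, 0 of the 8 passed in edgeR, 2 had an unadjusted p under the threshold and DESeq2 called 0. From 100 to 500 µg/mL, where 9.12% were called, FOXA3 fell by 0.31 (adjusted p = 0.000115) and FOXA2 by 0.19 (adjusted p = 0.0125). The FOXA2 step was lost without the third library at 100 µg/mL (adjusted p = 0.0885) or the first at 500 µg/mL (adjusted p = 0.0552).

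Ginseng, in the same set as licorice, called 0 of the 8 genes between its lowest and highest dose in edgeR and 0 in DESeq2, with 1 unadjusted p under the threshold, and 0.149% of all genes were called. The 8 changes ran from -0.17 for CEBPA to 0.08 for FOXA1. FOXA3 measured 36.8, 36.9 and 37.4 CPM at 20 µg/mL of ginseng and 37.4, 36.2 and 33.4 CPM at 500 µg/mL. The difference in dose change, licorice minus ginseng, was -0.43 ± 0.081 for FOXA3 (adjusted p = 0.00016) and -0.24 ± 0.069 for FOXA1 (adjusted p = 0.0164), with 8.79% of all genes called. For FOXA1 the difference missed the threshold without the first library of ginseng at 20 µg/mL (adjusted p = 0.0564) or at 500 µg/mL (adjusted p = 0.0815). For CEBPA the difference was -0.04 ± 0.095 (adjusted p = 0.862) and for HNF4A 0.14 (adjusted p = 0.0687). ONECUT1 (-0.33), PROX1 (-0.15), HNF4G (-0.12) and FOXA2 (-0.08) did not pass either, with adjusted p of 0.308 or more.

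Angelica and peony lowered CEBPA between 20 and 500 µg/mL. Under peony CEBPA measured 100.2, 113 and 114 CPM at the low dose and 86.0, 87.3 and 91.8 CPM at the high one, without overlap. Its change of -0.30 ± 0.067 (adjusted p = 0.00351) made it the only one of the 8 called, where 3.49% of all genes were. The other 7 changed by -0.09 to 0.04. Under angelica CEBPA measured 94.4, 104 and 118 CPM and then 92.1, 76.9 and 92.1 CPM, a change of -0.28 ± 0.067 (adjusted p = 0.0189). HNF4A went from 320, 314 and 288 CPM to 338, 350 and 334 CPM under angelica, a change of 0.15 ± 0.035 (adjusted p = 0.0156). Those were 2 of 8 genes where 1.22% of all genes were called, and the other 6 changed by -0.08 to 0.03. Both depend on single libraries: without the third angelica library at 20 µg/mL the changes were -0.19 for CEBPA (adjusted p = 0.317) and 0.11 for HNF4A (adjusted p = 0.252), and without the second at 500 µg/mL -0.20 (adjusted p = 0.254) and 0.13 (adjusted p = 0.154). Between angelica and peony 0 of the 8 dose changes differed in edgeR and 0 in DESeq2, 1 had an unadjusted p under the threshold, and 0.926% of all genes were called. The differences ran from -0.06 for FOXA2 to 0.10 for HNF4A, with 0.03 for CEBPA (adjusted p = 0.964).

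**Figure D3:**
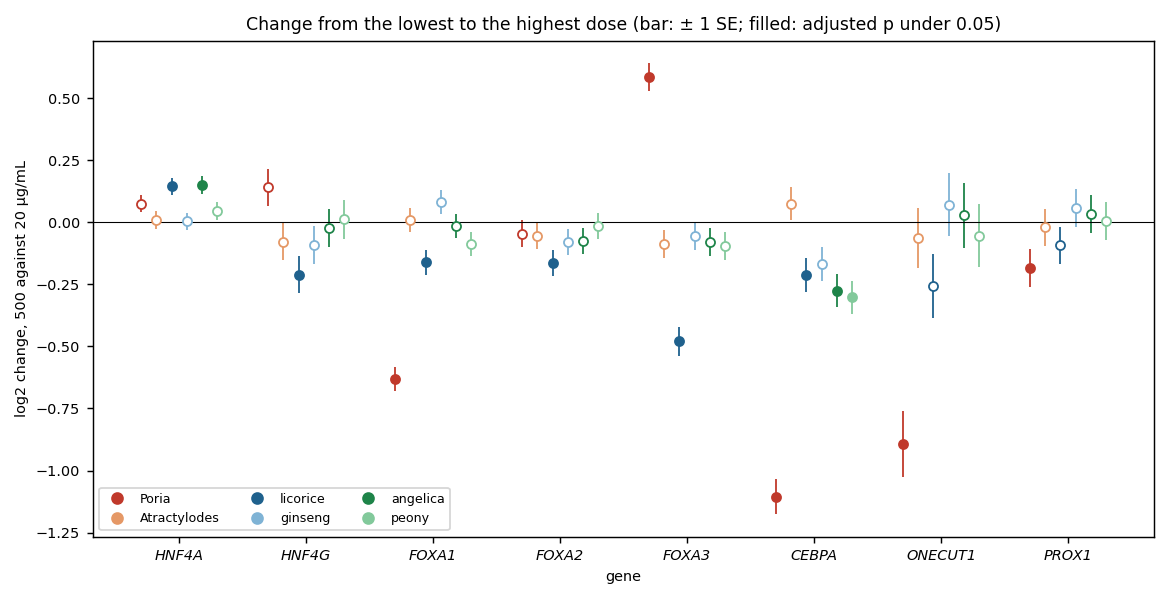
Log2 change from 20 to 500 µg/mL (y axis) of each of the 8 genes (x axis) under each of 6 extracts, with bars of 1 SE and filled points for an adjusted p under 0.05. Poria holds the largest changes, from -1.10 for CEBPA to 0.58 for FOXA3, and licorice the lowest FOXA3 value at -0.48.

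In a joint test of whether the 6 extracts share 1 dose change, 35.1% of all genes passed and 5 of the 8 did. Adjusted p was 1.2e-13 for FOXA3, 6.39e-13 for CEBPA, 2.72e-11 for FOXA1, 0.000208 for ONECUT1 and 0.036 for HNF4A. HNF4A missed the threshold in 25 of 42 alternative fits, with an adjusted p of up to 0.585. HNF4G (adjusted p = 0.114), PROX1 (adjusted p = 0.373) and FOXA2 (adjusted p = 0.629) did not pass.

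Against vehicle, FOXA1 and CEBPA lay below and FOXA2 above in each of the 18 extract groups. All 18 comparisons share the 3 vehicle libraries, and set and treatment cannot be told apart in them. The FOXA1 libraries of vehicle measured 121, 122 and 115 CPM, and no extract library reached them. Changes of FOXA1 ran from -0.81 under Poria at 500 µg/mL to -0.14 under Atractylodes at 500 µg/mL, and 15 of 18 passed, with 5 of 6 extracts at each dose. The FOXA1 call for Poria at 20 µg/mL was lost in 5 of 12 alternative fits (adjusted p up to 0.157), and the other FOXA1 calls were kept in all. FOXA2, at 41.0, 37.7 and 43.2 CPM in vehicle, changed by 0.003 to 0.31 and passed in 10 groups, of which 4 were at 20 µg/mL, 4 at 100 µg/mL and 2 at 500 µg/mL. Its call for licorice at 20 µg/mL was lost in 7 of 12 alternative fits (adjusted p up to 0.237). Those for licorice at 100 µg/mL and ginseng at 20 and 100 µg/mL were lost in 2, 1 and 2 of 12. CEBPA was below vehicle in all 18 groups and passed in 10, with 1 at 20 µg/mL, 4 at 100 µg/mL and 5 at 500 µg/mL. Its only call at 20 µg/mL, for licorice, was lost in 2 of 12 alternative fits (adjusted p up to 0.0944). At 100 µg/mL the calls for angelica and ginseng were lost in 3 and 5 of 12 (adjusted p up to 0.0646 and 0.155). The CEBPA calls at 500 µg/mL were kept in all alternative fits. The FOXA1 calls were thus as many at the lowest dose as at the highest, while those of CEBPA were mostly at 100 and 500 µg/mL.

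The remaining genes differed from vehicle in fewer groups. ONECUT1 was lower in 5 of 18 groups: Poria and licorice at 500 µg/mL and the 3 angelica doses. Without the third vehicle library the ONECUT1 calls for angelica were lost, with changes from the lowest to the highest dose of -0.26, -0.23 and -0.23 (adjusted p = 0.2, 0.332 and 0.294) in place of -0.38, -0.35 and -0.35, as was that for licorice (adjusted p = 0.115). HNF4G was lower in 1 group, licorice at 500 µg/mL, by 0.20 (adjusted p = 0.0362), and missed the threshold in 5 of 12 alternative fits (adjusted p up to 0.132). HNF4A was higher in 2 groups, Poria at 100 and at 500 µg/mL, and lower in 2, angelica at 20 µg/mL and peony at 20 µg/mL, within changes of -0.11 to 0.12. The HNF4A call for Poria at 100 µg/mL was lost in 4 of 12 alternative fits, among them that without the library that stood apart (change of 0.07). The call for angelica was lost in 4 of 12 (adjusted p up to 0.228), that for peony in 6 of 12 (adjusted p up to 0.201) and that for Poria at 500 µg/mL in 1 of 12 (adjusted p = 0.0858 with no filter on low counts). FOXA3 was higher in 2 groups, Poria at 100 and 500 µg/mL, and lower in 1, licorice at 500 µg/mL. PROX1 passed in 0 of 18, with 0 unadjusted p under the threshold and changes from -0.12 to 0.12.

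Over the 48 pairs of gene and extract at each dose, 13 passed at 20 µg/mL (4 higher, 9 lower), 16 at 100 µg/mL (6 higher, 10 lower) and 19 at 500 µg/mL (4 higher, 15 lower). With 1 library left out at a time these totals ran from 9 to 14, 12 to 16 and 17 to 19. The calls of each group are read against the share of all genes called in that group. For Poria these shares were 3.8%, 30.5% and 47.6% from the lowest to the highest dose, with 1, 4 and 5 of the 8 genes called. For licorice they were 11.2%, 16.4% and 32.4%, with 3, 3 and 5 called, and for ginseng 13.9%, 8.53% and 10.2%, with 2, 3 and 2 called. Angelica had shares of 24.3%, 14.6% and 18.9% with 4 called at each dose, and peony 15.8%, 10% and 19.7% with 3, 2 and 3 called. Atractylodes had shares of 1.08%, 1.35% and 0.889% with 0 called at each dose by edgeR and by DESeq2, and with 1, 2 and 1 unadjusted p under the threshold.

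**Figure D4:**
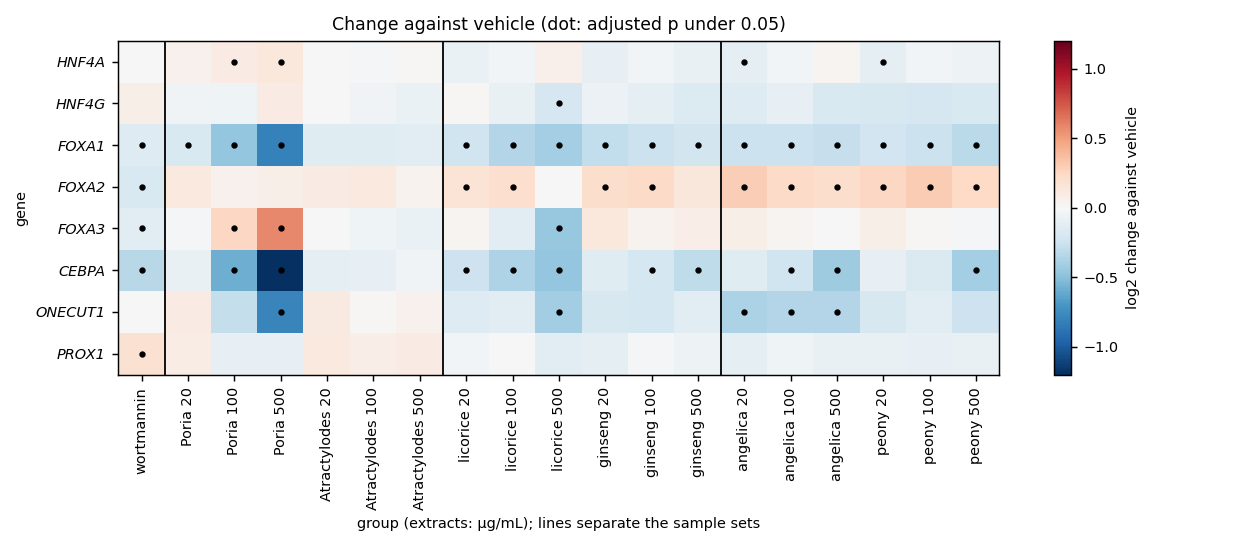
Log2 change against vehicle (colour) of the 8 genes (rows) in the wortmannin group and the 18 extract groups (columns, doses in µg/mL), with a dot where the adjusted p is under 0.05 and lines between the sample sets. The FOXA1 row is below vehicle throughout and dotted in 15 of 18 extract groups, the FOXA2 row is above it in 18 of 18 extract groups, and Atractylodes has no dot.

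In the wortmannin group CEBPA and the FOXA genes were lower than in vehicle and HNF4A did not pass. Wortmannin and the number of its set cannot be told apart here, and the blood marker sum, nearly all LYZ, was 2210 CPM against 1350 CPM in vehicle (4.52 against 4.24 CPM without LYZ). CEBPA measured 109, 120 and 122 CPM in vehicle and 89.7, 95.5 and 93.6 CPM with wortmannin, without overlap, a log2 change of -0.33 ± 0.066 (adjusted p = 4.29e-05). FOXA2 measured 35.6, 35.7 and 35.8 CPM with wortmannin, below each vehicle library, and changed by -0.19 ± 0.055 (adjusted p = 0.00372). FOXA1 measured 109, 104 and 108 CPM, also below each vehicle library, and changed by -0.16 ± 0.048 (adjusted p = 0.00551). CEBPA thus moved most of the 8, and FOXA2, which lay above vehicle in the extract groups, lay below it here.

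FOXA3 fell by 0.14 ± 0.056 under wortmannin (adjusted p = 0.0384) and PROX1 rose by 0.18 ± 0.075 (adjusted p = 0.0462). Both are close to the threshold: without the first vehicle library FOXA3 was at -0.10 (adjusted p = 0.19) and PROX1 at 0.15 (adjusted p = 0.15), and 3 of the 8 genes then passed, as they did without the second vehicle library or without the first or second wortmannin library. FOXA2 had an adjusted p of 0.0503 without the third vehicle library, and with DESeq2 the PROX1 change had an adjusted p of 0.057. HNF4A measured 324, 336 and 339 CPM in vehicle and 330, 339 and 325 CPM with wortmannin, a change of -0.01 (adjusted p = 0.893). HNF4G (0.07, adjusted p = 0.463) and ONECUT1 (-0.003, adjusted p = 0.989) did not pass. The 4 lower and 1 higher stood against 46.3% of all genes called, 22.4% higher and 24% lower, with a median of -0.07 over the members and 0.01 over all genes.

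Genes that lie next to these factors were read for the same comparisons. TTC6, which shares 16 exon bases with FOXA1 on the opposite strand, went from 11.6 to 6.51 CPM between 20 and 500 µg/mL of Poria, a log2 change of -0.84 ± 0.087 (adjusted p = 1.75e-11). CEBPA-DT, the divergent transcript beside CEBPA, went from 5.98 to 3.25 CPM, a change of -0.88 ± 0.116 (adjusted p = 1.15e-08). HNF4A-AS1, antisense to HNF4A, went from 2.84 to 1.34 CPM, a change of -1.09 ± 0.225 (adjusted p = 7.54e-05), although HNF4A itself did not pass. Over the licorice doses none of these 3 passed: TTC6 changed by -0.21 (adjusted p = 0.0655), CEBPA-DT by 0.14 (adjusted p = 0.365), with the opposite sign to CEBPA, and HNF4A-AS1 by 0.27 (adjusted p = 0.342). Nor did they pass under wortmannin, at -0.002, 0.10 and -0.37 (adjusted p = 0.987, 0.422 and 0.128). LINC00261, the long noncoding RNA beside FOXA2, fell by 0.30 under Poria (adjusted p = 5.04e-06), by 0.60 under licorice (152 to 100 CPM, adjusted p = 6.24e-13) and by 0.17 under wortmannin (adjusted p = 0.00647). PROX1-AS1, which shares 171 exon bases with PROX1, changed by 0.10 under Poria (adjusted p = 0.775), 0.03 under licorice (adjusted p = 0.951) and 0.39 under wortmannin (adjusted p = 0.0977). The strand setting of the counting is not given in the sources used here, so reads of these genes and of antisense partners that share exon bases may not be separated. AL121722.1 shares exon bases with FOXA2 on the same strand, where no strand setting would separate them, and its level was not read. The antisense genes that overlap CEBPA by 659 and 482 exon bases reached 4.74 and 0.222 CPM in their highest Poria library, against 49.7 CPM or more for CEBPA.

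Some of the 8 genes moved together over the 20 group means. As a description over groups that share libraries of 1 cell line and sets, the Pearson correlation of log2 CPM was 0.928 between FOXA1 and CEBPA, 0.851 between FOXA1 and ONECUT1 and 0.806 between CEBPA and ONECUT1. Over the 17 groups without Poria, left out after seeing the data, these were 0.729, 0.73 and 0.574. FOXA1 and FOXA3 had -0.538 over all groups and 0.312 without Poria, and HNF4A and FOXA3 had 0.154 and -0.718. FOXA3 and CEBPA had -0.508 and 0.494, and FOXA3 and ONECUT1 -0.455 and 0.131. By rank correlation HNF4A and FOXA3 had -0.284 and -0.794, and so kept their sign, and FOXA1 and FOXA3 had -0.298 and 0.015. The ranks gave -0.111 and 0.294 for FOXA3 and CEBPA, and -0.379 and -0.206 for FOXA3 and ONECUT1. The relations among FOXA1, CEBPA and ONECUT1 kept their sign by both measures, as did those of FOXA3 with FOXA2 (Pearson 0.193 and 0.55) and with PROX1 (-0.275 and -0.149).

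Across the 10561 genes with at least 5 CPM on average, the pattern most like that of FOXA1 was that of CABLES2 (r = 0.966 over 20 groups), followed by TTC6 (0.958) and RAVER2 (0.938). For CEBPA the closest were DTX4 (0.95), LSM14B (0.939) and ANTXR1 (0.939), and for ONECUT1 ZNF217 (0.929), AASS (0.913) and NCOA3 (0.908). For FOXA3 they were TNFRSF10D (0.925), CD24 (0.914) and CAMK2N1 (0.909). For FOXA2 they were CYC1 (0.935), ELP5 (0.923) and EPO (0.914), for HNF4A KCTD20 (0.905), MTFMT (0.891) and MARS2 (0.891), for HNF4G ZZZ3 (0.892), LNX2 (0.891) and PANK3 (0.883), and for PROX1 JADE3 (0.91), ZNF891 (0.905) and DENND5B (0.904). The neighbour depends on the measure: KCTD20 stayed first for HNF4A by rank correlation, whereas after centring within each set AATF was first (0.929) and KCTD20 had 0.863. For FOXA1 rank correlation put UBXN2B first, and centring ANTXR1.

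Other liver-enriched transcription factors, 35 of 37 listed genes with enough counts, held genes called in both directions, read here against the 46.3%, 43.5% and 21.3% of all genes called for wortmannin, Poria and licorice. Under wortmannin 13 rose and 9 fell (median 0.06, against 0.01 over all genes), led by NR0B2, the nuclear receptor SHP that represses bile acid synthesis, at 1.40 (47.0 to 124 CPM, adjusted p = 2.88e-19). CREB3L3, an ER-bound factor for lipid genes, went from 11.5 to 26.4 CPM (adjusted p = 1.84e-15) and KLF15, a factor of fasting metabolism, by 0.81 (adjusted p = 7.76e-11). From 20 to 500 µg/mL of Poria 7 rose and 12 fell (median -0.09, against -0.01). NR1H4, the bile acid receptor FXR, fell by 1.45 (63.3 to 23.1 CPM, adjusted p = 5.03e-27), KLF6, an injury-responsive zinc finger factor, rose by 1.05 (adjusted p = 1.51e-20) and TEF, a PAR leucine zipper factor, went from 9.79 to 5.13 CPM (adjusted p = 1.45e-13). Under licorice 2 rose and 7 fell (median -0.12, against 0). The share called under licorice was near that of all genes, so that count is no result about this list. The list was chosen with earlier results of these data known, so its counts describe it and are no test. NR1H4 fell by 0.46 (adjusted p = 8.33e-10) and TEF by 0.32 (adjusted p = 0.000987), and TBX3, a T-box factor of liver growth, rose from 74.2 to 90.5 CPM (adjusted p = 9.39e-05).

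Cofactors that work with HNF4A and the FOXA proteins, 19 of 19 tested, were called about as often as all genes over the doses of Poria (8 of 19, against 43.5% of all genes) and licorice (5 of 19, against 21.3%), and in a smaller share under wortmannin (5 of 19, against 46.3%), so these counts are no result about cofactors. Under wortmannin 3 rose and 2 fell (median -0.02, against 0.01 over all genes), with PPARGC1A, the PGC-1 alpha coactivator of gluconeogenesis, up by 1.24 (21.4 to 50.7 CPM, adjusted p = 1.08e-17), the coactivator NCOA1 up by 0.35 (adjusted p = 3.04e-07) and the deacetylase HDAC3 down by 0.37 (adjusted p = 2.76e-09). Over the Poria doses 4 rose and 4 fell (median -0.002, against -0.01). The coactivator NCOA3 fell by 0.60 (adjusted p = 2.01e-12) and the corepressor TLE1 by 0.33 (adjusted p = 1.16e-07), and PPARGC1B rose by 0.49 (adjusted p = 0.00878). Over the licorice doses 1 rose and 4 fell (median -0.09, against 0). The one that rose was PPARGC1B, by 0.66 (adjusted p = 0.00151), while CITED2, an HNF4A coactivator, fell by 0.54 (adjusted p = 1.83e-06) and NCOA3 by 0.39 (adjusted p = 5.1e-07).

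Hepatocyte genes known to be bound by these factors, 40 of 44 with enough counts, mostly rose under wortmannin and mostly fell over the doses of Poria and licorice. The list was chosen with earlier results of these data known, so its counts describe it and are no test. Under wortmannin 29 rose and 4 fell, where 22.4% of all genes rose and 24% fell, with a median of 0.28 against 0.01 over all genes. G6PC1, the last enzyme of glucose release, rose by 3.55 (18.4 to 216 CPM, adjusted p = 1.31e-35), TTR, which carries thyroxine, by 1.56 (adjusted p = 3.17e-26) and the apolipoprotein gene APOM from 85.1 to 270 CPM (adjusted p = 3.78e-28). In the same libraries CEBPA was lower and HNF4A did not pass.

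Over the Poria doses 11 hepatocyte genes rose and 23 fell, where 22.3% of all genes rose and 21.2% fell, with a median of -0.22 against -0.01. CYP7A1, which sets the rate of bile acid synthesis, fell by 1.00 (5.15 to 2.57 CPM, adjusted p = 2.49e-09). OTC, a urea cycle enzyme, was also called, at 0.253 and 0.0427 CPM, the latter under the level of 3 counts in a library, so no fold is given. Over the licorice doses 3 rose and 24 fell, where 11% of all genes rose and 10.3% fell, with a median of -0.27 against 0. ITIH1, a plasma protease inhibitor chain, fell by 1.15 (14.6 to 6.58 CPM, adjusted p = 2.57e-15), CYP7A1 by 0.89 (adjusted p = 2.48e-07) and PCK1, the entry enzyme of gluconeogenesis, by 0.78 (adjusted p = 2.73e-07).

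Fetal liver, progenitor and biliary genes, 14 of 16 tested, were read against the 46.3%, 43.5% and 21.3% of all genes called for wortmannin, Poria and licorice. The share called was near that of all genes under wortmannin and below it over the Poria doses, so those counts are no result about this list. It was chosen with earlier results of these data known, so its licorice count is no test either. Under wortmannin 1 rose and 5 fell (median -0.05, against 0.01 over all genes). KRT19, a bile duct keratin, went from 61.7 to 34.4 CPM (adjusted p = 4.29e-16), LIN28B, a fetal RNA-binding protein, fell by 0.39 (adjusted p = 4.49e-07), and GPC3, a fetal glypican, went from 146 to 189 CPM (adjusted p = 5.62e-08). Over the Poria doses 4 rose and 1 fell (median -0.03, against -0.01). SPP1, the secreted protein osteopontin, rose by 1.17 (382 to 863 CPM, adjusted p = 7.45e-26), KRT19 by 0.82 (adjusted p = 3.11e-16) and CD24, a progenitor surface protein, by 0.55 (adjusted p = 1.74e-10). Over the licorice doses 1 rose and 8 fell (median -0.27, against 0). SPP1 again rose, by 0.82 (adjusted p = 4.25e-19), CD24 fell by 0.50 (adjusted p = 4.17e-08) and IGF2, a fetal growth factor, went from 3960 to 3030 CPM (adjusted p = 0.001).

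**Figure D5:**
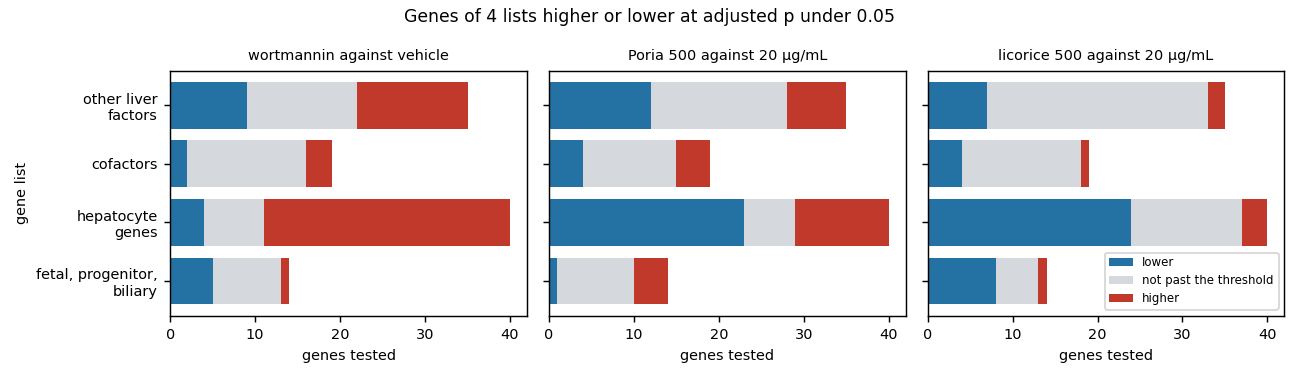
Number of tested genes (x axis) that were lower, not past the threshold or higher at an adjusted p under 0.05 in 4 gene lists (y axis), for wortmannin against vehicle and for 500 against 20 µg/mL of Poria and of licorice. Hepatocyte genes are mostly higher with wortmannin (29 of 40) and mostly lower over the doses of Poria (23 of 40) and licorice (24 of 40). Of all tested genes 22.4% were higher with wortmannin, and 21.2% and 10.3% were lower over the doses of Poria and licorice. The lists were chosen with earlier results of these data known.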

How the data were processed

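Per the labels, directional libraries were sequenced as paired reads of 100 bases. The submitters' processing notes name FastQC 0.11.9, Trim Galore 0.6.5, STAR 2.7.3a, RSEM 1.3.3 and hg38. The annotation release is not given in the sources used here. Values in the deposited table are RSEM expected counts. Of those above 0, 76.1% are whole, and all were rounded here. It has 270 columns: 60 were used and 210 were not.

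All 60 libraries were fitted in edgeR 4.0.16 (R 4.3.3) with TMM factors of 0.926 to 1.03, a mean for each group and filterByExpr (minimum count 10, minimum total 15), and tested with glmQLFTest. Benjamini-Hochberg adjustment ran over 16093 genes within each comparison, with calls at 0.05. CPM uses TMM-scaled library sizes, and lengths are the merged exons of GENCODE v29. The fit was also run on counts simulated with known changes from its own estimates of the spread. Such counts cannot test for set effects or for replicates that are technical.

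The 8 genes and all gene lists were chosen with earlier results of these data known. All 8 genes were tested in each comparison, and those that did not pass are given singly or by their range. Of a list, the called genes with the 3 largest changes are named for wortmannin and for extracts with at least 1000 genes called over the doses, and for each of the 8 genes the 3 of highest Pearson correlation over group means. One gene that this rule takes is not reported here. Alternatives were DESeq2 size factors, the DESeq2 1.42.0 Wald test, a mean of at least 1 CPM, no filter, only the groups compared, a log-dose regression, a block for the replicate number, and fits without each single library. Promoter motifs were chosen after their sequences were seen.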

Additional observations from a re-analysis of the deposited data

Results flagged for a closer look

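Dose changes that differ between the extracts of a set by a test of the difference itself were flagged for 4 genes between Poria and Atractylodes and for 2 between licorice and ginseng. Poria minus Atractylodes was -1.18 for CEBPA, -0.64 for FOXA1, -0.83 for ONECUT1 and 0.67 for FOXA3 on the log2 scale (edgeR adjusted p = 3.27e-14, 1.66e-10, 0.000286 and 1.54e-09). Licorice minus ginseng was -0.43 for FOXA3 and -0.24 for FOXA1 (edgeR adjusted p = 0.00016 and 0.0164). The dose change of FOXA3 thus lay above that of the set partner for Poria and below it for licorice. Groups of 3 libraries were not searched for single outlying values.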

How the results depend on the processing

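Of 264 results for a gene in a comparison, 88 passed the threshold, and 54 of these passed under every alternative run. None changed sign. The 2 calls over the angelica doses became 1 with no filter on low counts, 0 with only the libraries of the groups compared and 0 in the regression on log dose. Leaving out 1 library at a time gave 3 to 4 calls for wortmannin (5 with all libraries), 2 to 6 for the licorice doses (6), 0 to 2 for the angelica doses (2), 1 to 3 for licorice minus ginseng (2) and 1 to 2 for the licorice steps (2). Of the 88 calls, DESeq2 size factors lost 2, the DESeq2 test 1, a mean of at least 1 CPM 1, no filter 10 and only the libraries of the groups compared 12. The cause was not tested.

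With the replicate number as a block 0 of the 88 calls were lost, and 5 genes passed for wortmannin and 5 for the Poria doses as without it. Pairing by number was not found: in 0 of 13 comparisons were all correlations of same-numbered deviations over 0.1. Their median was 0.011 against -0.005 for other numbers. With 3 libraries per group and deviations taken over all genes, the check cannot exclude a pairing within a set or for single genes. Without TMM factors 148 of 160 group levels moved by less than 1 SD. At a median of 26.1 M counts per library the SE over the Poria doses was 0.133 for ONECUT1, 0.075 for HNF4G and 0.035 for HNF4A.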
